A study of Homo sapiens with 12 samples.

Results

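Cells labelled NPC-NC were compared with cells labelled sox10-NC across all genes that could be tested, with 3 arrays of each group, which are 6 of the 12 arrays of the study. NPC-NC cells were induced towards neural crest without feeder cells, sorted at day 18 for both HNK1, a carbohydrate epitope, and p75, the receptor encoded by NGFR. The sox10-NC cells were induced with Wnt, carried the transgenic reporter sox10::GFP, and were sorted for GFP at day 11. Both groups came from H9, an established human embryonic stem cell line, and the labels number the arrays of each group as biological replicates. Total RNA was hybridised to Illumina HT-12 arrays, which read each transcript with probes on beads. The other 6 arrays held MS5-NC, induced on MS5 feeder cells and sorted for HNK1 and p75 at day 35, and LSB, unsorted neuroepithelial cells at day 11. Whether the reporter line is a single clone is not given in the sources used here. Induction, sort, day and reporter differed together between NPC-NC and sox10-NC, so their parts cannot be told apart. No chip or scan batch is given in the sources used here.

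The neural crest is an embryonic cell population that forms at the border of the neural plate, leaves the dorsal neural tube and gives rise to peripheral neurons and glia, pigment cells and facial cartilage and bone. Its formation needs Wnt, BMP and FGF signals, which turn on plate border factors such as PAX3 and MSX1 and then specifier factors such as FOXD3, the AP-2 factors, SNAI2 and SOX10. Cells that stay in the neural tube keep SOXB factors such as SOX2 and SOX3, and in the forebrain they take on selector factors such as LHX2, EMX2 and PAX6.

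Of 47322 probes per array, 16559 to 17101 were detected above background on NPC-NC arrays and 14616 to 15423 on sox10-NC arrays, with 18 to 21 beads behind the median probe. Levels are given as log2 normalised signal after background correction and quantile normalisation, differences as NPC-NC minus sox10-NC on the log2 scale with their SE, and p as limma's p adjusted over the 11280 genes tested. A gene was called when its adjusted p was under 0.05, the change at least 2-fold and the higher group detected its probe on 2 or more arrays. Below background means that none of a group's 3 arrays detected the probe (detection p under 0.01), and the fold is then given as a lower bound. Where a group detected the probe on some but not all of its 3 arrays, no bound was set. Such a fold rests in part on signal below background. The number of arrays limits the precision. Each array pooled the RNA of all sorted cells, so fewer cells of a type and less RNA per cell cannot be told apart.

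Arrays correlated at 0.956 to 0.975 within NPC-NC, 0.943 to 0.962 within sox10-NC and 0.865 to 0.885 between the groups across genes, which are not independent replicates. On the first principal component of the 6 arrays, with 64.8% of the variance, the groups separated. On the second, with 14.1%, NPC-NC array 1 lay at 22.7 and NPC-NC arrays 2 and 3 at -10.4 and -10.9, while sox10-NC arrays lay at 29.9, -32.6 and 1.30. NPC-NC array 1 thus stood apart from arrays 2 and 3. It had the highest level of DCN, a proteoglycan of fibroblasts, with 10.04, 5.16 and 5.62 on NPC-NC arrays 1 to 3, against 4.44, 5.01 and 5.80 on sox10-NC arrays. LUM, a collagen-binding proteoglycan, stood at 10.58, 6.63 and 6.94 in NPC-NC, against 5.21, 5.26 and 6.45 in sox10-NC. The same array was the lowest in FGF17, a ligand of the FGF family, with 4.65, 8.54 and 8.24 on NPC-NC arrays and 4.78, 4.65 and 4.64 on sox10-NC arrays. Array 1 was therefore high in DCN and LUM and low in FGF17, where it fell within the sox10-NC range.

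CHCHD2, a mitochondrial protein gene, had the widest spread within NPC-NC, with 11.34, 5.04 and 5.22, against 4.40, 4.69 and 4.42 in sox10-NC. Its levels were 5.24, 11.36 and 11.05 on MS5-NC arrays and 4.96, 5.78 and 5.10 on LSB arrays, so it was near background on 9 arrays and high on 3. SCGN, a calcium-binding protein of neurons and endocrine cells, ran the other way within NPC-NC, with 6.06, 8.63 and 9.74, against 4.43, 4.29 and 4.38 in sox10-NC. Within sox10-NC, array 2 was the highest in SST, a neuropeptide, which had 7.74, 4.84 and 4.70 on NPC-NC arrays and 5.48, 9.50 and 7.24 on sox10-NC arrays. The same held for OLIG2, a factor of motor neuron and oligodendrocyte precursors, with 5.15, 5.23 and 5.03 in NPC-NC, against 5.01, 8.06 and 6.41 in sox10-NC. Array 1 of sox10-NC was the highest in the glycolytic regulator PFKFB4, with 10.30, 10.72 and 10.27 in NPC-NC, against 11.79, 8.47 and 9.15 in sox10-NC. These genes were chosen for display after their values were seen. The part of these arrays in the differences below was measured by leaving each out, and the values are given beside the genes it moved by more than 1.5 times.

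**Figure D1:**
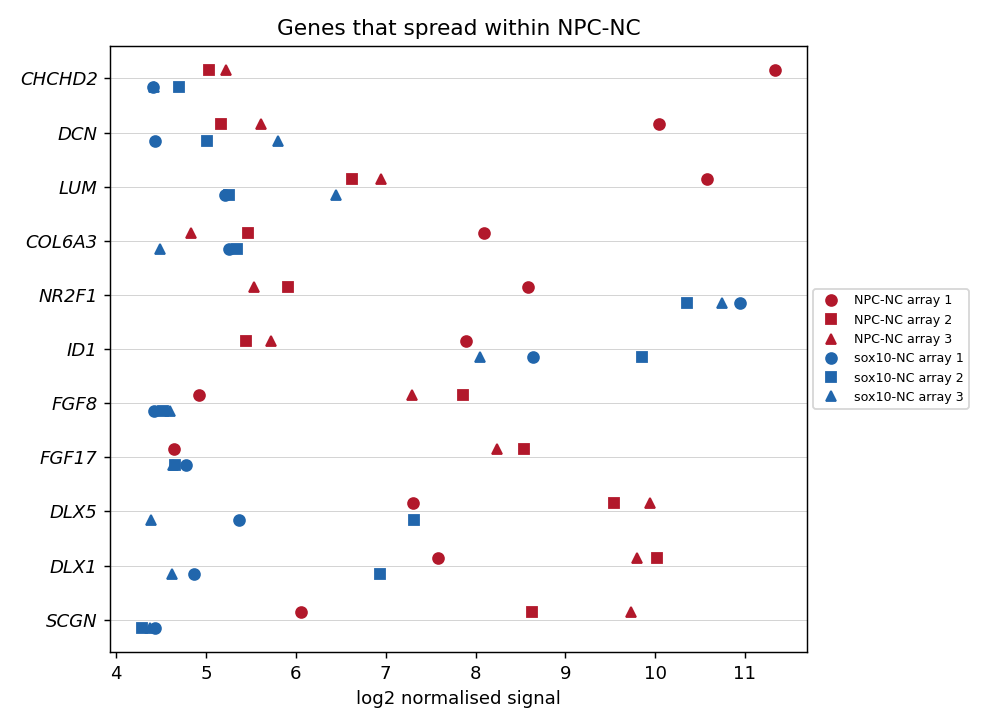
Log2 normalised signal of 11 genes on each of the 3 NPC-NC arrays (red) and 3 sox10-NC arrays (blue), with a symbol per array. NPC-NC array 1 (red circles) lies apart from NPC-NC arrays 2 and 3 in all of them, for example at 11.34 against 5.04 and 5.22 in CHCHD2.

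Between NPC-NC and sox10-NC, 1050 of 11280 genes were called higher (9.31%) and 533 lower (4.73%). The counts of list members below are to be read beside these shares, 9.31% higher and 4.73% lower. The median difference over all genes was 0.01. Of the genes called higher, 396 were below background on all sox10-NC arrays, and of those called lower, 86 were below background on all NPC-NC arrays. At 4-fold or more, 302 genes were higher and 123 lower. Differences of single genes stood beside a median SD of 0.28 among NPC-NC arrays and 0.31 among sox10-NC arrays. Without background correction 435 genes were higher and 205 lower, and folds of named genes shrank to 0.568 of those given here at the median.

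DLK1, an imprinted gene for a membrane protein related to Notch ligands, had the largest lower bound of the genes called higher. Its levels were 12.78, 12.84 and 12.76 in NPC-NC, against 5.0, 4.82 and 4.48 in sox10-NC, where it was below background, so it was at least 169-fold higher (adjusted p = 8.05e-13). NPC-NC arrays were close together, and the groups did not overlap. DLK1 also met a naming rule that required sox10-NC below background, so the lack of overlap adds nothing. Among genes detected on all 6 arrays, FABP7, a fatty acid-binding protein of radial glia, rose most, with 12.90, 13.08 and 13.23 in NPC-NC, against 7.44, 6.89 and 7.74 in sox10-NC (difference 5.71 ± 0.25, 52.5-fold, adjusted p = 8.13e-12). ZIC2, a dorsal neural tube factor, was 19.97-fold higher (difference 4.32 ± 0.24). TLE4, a co-repressor of the Groucho family, was 14.8-fold higher, CNTNAP2, an adhesion protein of axons, 13.8-fold and DDR1, a receptor tyrosine kinase for collagen, 11.9-fold. The largest rises also held ALPL, the tissue-nonspecific alkaline phosphatase, at 11.9-fold and NELL2, a secreted protein of neurons, at 11.6-fold.

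The largest falls among genes detected on all 6 arrays began with ERBB3, a neuregulin receptor of migrating crest and glia. ERBB3 stood at 6.12, 5.20 and 5.29 in NPC-NC, against 10.56, 10.27 and 10.50 in sox10-NC (difference -4.90 ± 0.32, 29.9-fold lower, adjusted p = 2.23e-09). ACTC1, the cardiac alpha actin, had 7.39, 6.98 and 6.98 in NPC-NC, against 10.73, 12.14 and 12.27 in sox10-NC, and was 24.2-fold lower. ECEL1, a membrane metalloprotease of neurons, was 19.01-fold lower, ROR1, a receptor for WNT5A, 10.1-fold lower and DACT1, which binds Dishevelled in Wnt signalling, 13.3-fold lower. KANK4, a member of a family of actin regulators, was 20.1-fold lower. The rule for these largest changes required groups that do not overlap, so the separation adds nothing.

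Genes below background on every NPC-NC array and high in sox10-NC included INSC, an adaptor of spindle orientation, with 9.95, 9.61 and 9.84 on sox10-NC arrays and at least 25.7-fold lower. ABCC2, an export pump for organic anions, was at least 14.6-fold lower and FOXD2, a forkhead factor, at least 11.2-fold lower.

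**Figure D2:**
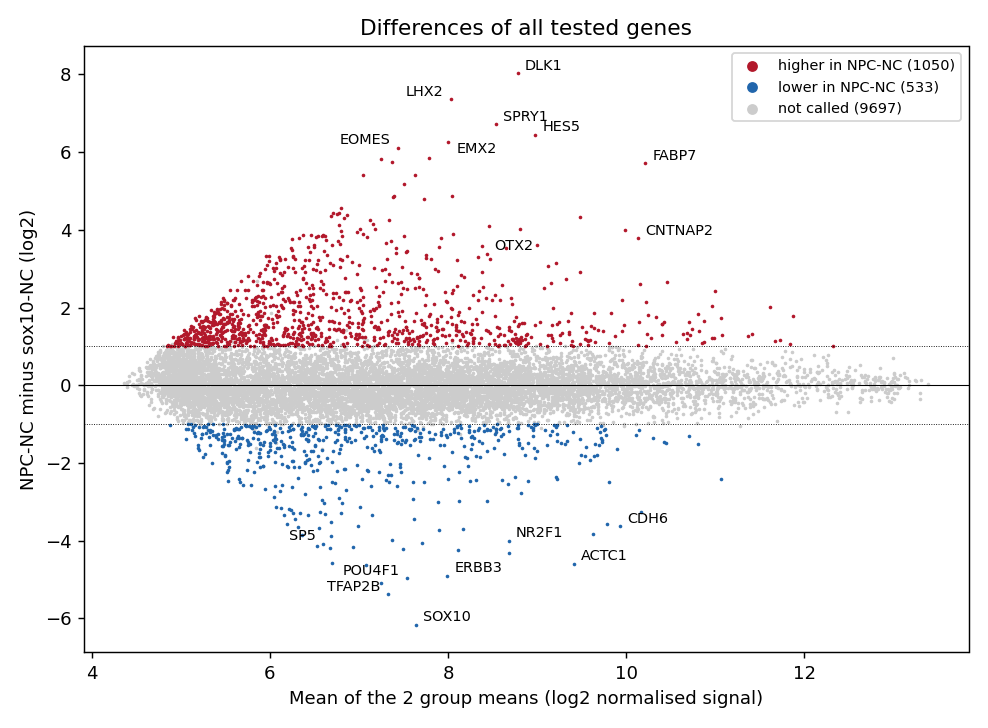
Difference between NPC-NC and sox10-NC (log2, vertical) against the mean of both group means (log2 normalised signal, horizontal) for the 11280 genes tested; red points are the 1050 genes called higher in NPC-NC, blue points the 533 called lower, grey points the genes not called, and dotted lines mark 2-fold. DLK1 lies highest and SOX10 lowest, and the slanted edges at low signal hold genes below background in either group.

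Neural crest specifier factors were lower in NPC-NC as a list. Of 18 measured members of 21, 11 were called lower and 1 higher, with a median difference of -1.66, or -1.57 counting undetected members at their bound. The mean level of the 18 probes was 6.40 to 7.08 on NPC-NC arrays and 8.51 to 8.56 on sox10-NC arrays. SOX10, on whose reporter sox10-NC was sorted, was among the 11 lower and counts in these values. Without NPC-NC array 1, 13 were lower and 1 higher. On NPC-NC arrays 11 to 14 of the 18 were detected, against 15 to 17 on sox10-NC arrays, and of 7 plate border factors 5 to 6 were detected in NPC-NC, against 3 to 5 in sox10-NC. SOX8, SOX9, ETS1, LMO4, NR2F1, TFAP2C, ID2, ID3, HIF1A, MYB and MYC were detected on all 3 NPC-NC arrays. SOX10, TFAP2B, FOXD3 and the border factor PAX3 were undetected on all 3. A second ETS1 probe was detected on 1 NPC-NC array, and a second MYC probe on none. Unsorted LSB arrays detected 11, 12 and 13 of the 18 specifiers, and 6 of the 7 border factors each. The numbers detected thus do not set NPC-NC apart from unsorted neuroepithelium. The markers bear out the neural crest label of NPC-NC at most in part, and the cells are called NPC-NC here.

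SOX10, the factor of migrating crest and its glia, stood at 5.01, 4.24 and 4.42 in NPC-NC, below background on all 3 arrays, against 10.97, 10.51 and 10.70 in sox10-NC. It was at least 48.8-fold lower (adjusted p = 1.49e-12), and since sox10-NC cells were sorted for a SOX10 reporter, this difference is part of the selection and no finding. TFAP2B, an AP-2 factor of the crest, was also below background in NPC-NC, with 4.86, 4.35 and 4.67 in NPC-NC, against 9.92, 9.76 and 10.36 in sox10-NC, and at least 29.8-fold lower (adjusted p = 6.84e-12). Its relative TFAP2A, which activates crest genes, was detected on 2 NPC-NC arrays and stood at 6.17, 4.69 and 5.29 in NPC-NC, against 9.78, 9.23 and 9.81 in sox10-NC (difference -4.22 ± 0.37, 18.7-fold lower, adjusted p = 8.46e-08). For all these factors, every NPC-NC array lay below every sox10-NC array. SOX10 and TFAP2B also met a naming rule that required NPC-NC below background, so for them this adds nothing.

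FOXD3, an early crest factor, stood at 4.28, 4.33 and 4.25 in NPC-NC, all below background, against 7.36, 6.38 and 6.54 in sox10-NC, and was at least 3.12-fold lower (adjusted p = 3.47e-07). SNAI2, a repressor of epithelial cadherins, was detected on 1 NPC-NC array, with 6.10, 4.99 and 5.02 in NPC-NC, against 9.82, 9.16 and 9.10 in sox10-NC (difference -3.99 ± 0.29, 15.9-fold lower, adjusted p = 9.52e-09). NR2F1, a nuclear receptor of cranial crest that is also found in cortex, stood at 8.58, 5.92 and 5.54 in NPC-NC, against 10.95, 10.35 and 10.74 in sox10-NC. NPC-NC array 1 was the highest of its group but lay below sox10-NC. NR2F1 was 16.01-fold lower (difference -4.0 ± 0.52, adjusted p = 1.44e-05), and the difference was -4.95 without NPC-NC array 1. ETS1, a factor of cranial crest, was 5.38-fold lower, TFAP2C 4.53-fold lower, ID3, an inhibitor of bHLH factors, 3.54-fold lower and LMO4, a LIM-only cofactor, 2.82-fold lower.

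The SOXE factors, which share a family with SOX10, split. SOX8 had 7.91, 8.30 and 8.07 in NPC-NC, against 9.49, 9.48 and 9.47 in sox10-NC, and was 2.62-fold lower (difference -1.39 ± 0.27, adjusted p = 7.92e-04). SOX9, which also acts in cartilage and in radial glia, had 9.68, 9.58 and 9.07 in NPC-NC, against 7.70, 6.98 and 6.69 in sox10-NC, and was 4.98-fold higher (difference 2.32 ± 0.30, adjusted p = 1.23e-05). It was the only specifier called higher, and no NPC-NC array of either gene entered the sox10-NC range. The 6 specifiers without a call were HIF1A, SOX6, MYB, TWIST1, MYC and ID2. TWIST1, a factor of crest mesenchyme, stood at 7.70, 4.80 and 4.45 in NPC-NC, against 5.28, 5.47 and 6.51 in sox10-NC, so that the groups overlapped and NPC-NC array 1 was the highest of all 6; its difference was -0.10, and -1.13 without that array.

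Plate border factors were mixed, with 3 of 7 measured members called higher and 2 lower. PAX3, a border factor, was below background in NPC-NC with 4.77, 4.45 and 4.30, against 6.75, 6.35 and 6.46 in sox10-NC, and at least 2.65-fold lower (adjusted p = 1.13e-05), a call that ended without background correction. MSX1, a homeobox target of BMP, was 4.24-fold lower (difference -2.08 ± 0.30). HES4, a Notch effector, was called higher and is described with the Notch genes. ZIC1, which continues in the dorsal neural tube, was at least 4.14-fold higher, with 7.47, 7.30 and 7.55 in NPC-NC, against 4.44, 4.43 and 4.46 in sox10-NC. DLX5, which also acts in forebrain interneurons, had 7.30, 9.54 and 9.95 in NPC-NC, against 5.36, 7.32 and 4.39 in sox10-NC, where array 2 reached the level of NPC-NC array 1. It was 9.44-fold higher (difference 3.24 ± 0.60, adjusted p = 5.50e-04), and the difference was 4.05 without NPC-NC array 1, 4.05 without sox10-NC array 2 and 2.59 without sox10-NC array 3. DLX5 was detected on 1 sox10-NC array. PAX7, a further border factor, was not called, with 6.51, 6.75 and 6.13 in NPC-NC, against 6.64, 6.64 and 5.37 in sox10-NC (difference 0.25).

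**Figure D3:**
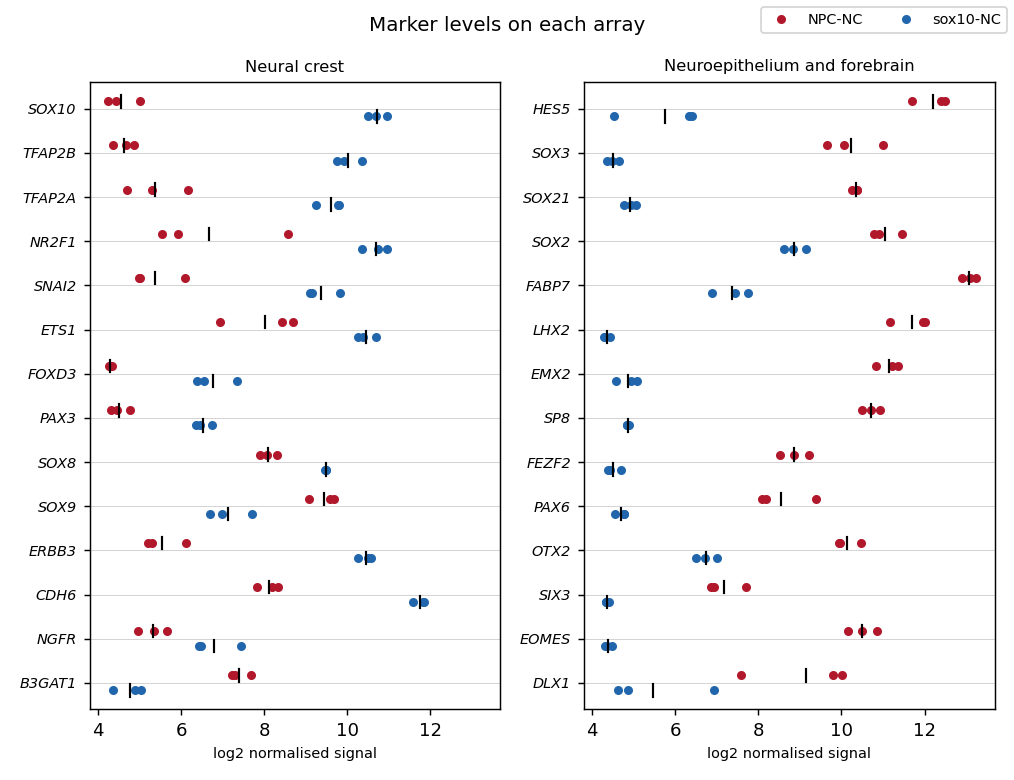
Log2 normalised signal of 14 neural crest genes (left) and 14 neuroepithelial and forebrain genes (right) on the 3 NPC-NC arrays (red, upper of each pair) and the 3 sox10-NC arrays (blue, lower), with a black bar at each group's mean. NPC-NC arrays lie left of sox10-NC arrays for all crest genes shown except SOX9 and B3GAT1. They lie right of them for all neuroepithelial and forebrain genes shown. All genes shown were called, so this separation follows in part from their choice. List members without a call, and higher crest genes such as CDH11 and ST8SIA1, are not shown.

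Genes of crest surface and migration moved in the same direction as the specifiers, with 10 of 16 measured members called lower and 4 higher (median difference -2.09). CDH6, a cadherin of delaminating crest, stood at 8.33, 8.20 and 7.82 in NPC-NC, against 11.81, 11.84 and 11.59 in sox10-NC, and was 12.4-fold lower (difference -3.63 ± 0.23, adjusted p = 1.66e-09). NRP2, a semaphorin co-receptor, went undetected on all NPC-NC arrays and was at least 7.91-fold lower, while its ligand SEMA3C was 6.16-fold lower. GFRA1, a co-receptor for GDNF, was 7.83-fold lower, CXCR4, a chemokine receptor, 5.13-fold lower and EDNRB, an endothelin receptor of pigment and enteric precursors, 3.53-fold lower. ITGA4, an integrin chain that binds fibronectin, was 5.90-fold lower and RHOB, a small GTPase of delamination, 5.50-fold lower.

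Of the antigens of the NPC-NC sort, p75 has a transcript on the array, and HNK1, a carbohydrate, was not measured. NGFR, which encodes p75, had 5.66, 4.97 and 5.36 in NPC-NC, where 2 of 3 arrays detected it, against 7.44, 6.47 and 6.43 in sox10-NC, and was 2.73-fold lower (difference -1.45 ± 0.28, adjusted p = 8.85e-04). The groups did not overlap, but the NGFR call ended without background correction and with an offset of 50. B3GAT1, a glucuronyltransferase that takes part in building the HNK1 epitope, stood at 7.22, 7.29 and 7.68 in NPC-NC, against 5.03, 4.36 and 4.90 in sox10-NC, below background there, and was at least 4.005-fold higher (adjusted p = 4.53e-07). ST8SIA1, a sialyltransferase of ganglioside synthesis, was at least 2.95-fold higher, a call that ended without background correction. CDH11, a mesenchymal cadherin, was 3.39-fold higher (difference 1.76 ± 0.36).

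Genes of crest derivatives were counted by lineage, with no test between the lists. All 3 called members among 4 measured melanocyte genes were lower. MITF, the master factor of melanocytes, was below background in NPC-NC with 4.39, 4.66 and 4.45, against 7.46, 7.12 and 6.65 in sox10-NC, and at least 3.89-fold lower (adjusted p = 1.11e-07). PMEL, a melanosome protein, was 14.3-fold lower (difference -3.83 ± 0.35) and KIT, the receptor of melanoblasts, 2.92-fold lower. Among 6 measured sensory neuron genes, 3 were lower and 1 higher. POU4F1, a homeodomain factor of sensory neurons, stood at 6.05, 4.37 and 4.75 in NPC-NC, where 1 array detected it, against 8.82, 10.81 and 10.44 in sox10-NC, and was 31.4-fold lower (difference -4.97 ± 0.44, adjusted p = 1.04e-07), with a difference of -5.57 without sox10-NC array 1. NEUROG1, a proneural factor of sensory neurons, was 4.07-fold lower and ISL1, a LIM factor of sensory and motor neurons, 5.46-fold lower, with an ISL1 difference of -3.04 without sox10-NC array 1. The higher gene was NEUROG2, a proneural factor of cortex and dorsal root ganglia, at 4.75-fold (difference 2.25 ± 0.30).

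TH, tyrosine hydroxylase of the catecholamine pathway, was 1 of 2 higher genes among 4 measured autonomic genes. It stood at 7.72, 9.65 and 9.43 in NPC-NC, against 4.35, 4.71 and 4.40 in sox10-NC, below background there, and was at least 11.6-fold higher (adjusted p = 4.61e-08), with NPC-NC array 1 the lowest of its group. Its fitted difference, which is no bound, was 4.44, and 5.05 without NPC-NC array 1. TH is also made by neurons of the midbrain and olfactory bulb. The other was CHRNA3, a nicotinic receptor subunit of ganglia, at least 3.21-fold higher. Among 7 measured genes of Schwann cells and glial precursors, 3 were higher (FABP7, SOX2 and MBP) and 1 lower (L1CAM), and all 4 are also genes of central neural cells. The calls of MBP and L1CAM ended without background correction and with an offset of 50.

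Neuroepithelial genes were higher in NPC-NC, with 9 of 12 measured SOXB and neuroepithelial genes called higher and 0 lower (median difference 1.84, or 1.72 with bounds). All 12 were detected on each NPC-NC array, 6 to 7 on sox10-NC arrays and 11 on each unsorted LSB array. Of the 12, 5 were below background in 1 group alone. HES5, a Notch effector of neural progenitors, stood at 12.39, 12.50 and 11.70 in NPC-NC, against 4.53, 6.40 and 6.34 in sox10-NC, where 2 of 3 arrays detected it, and was 87.0-fold higher (difference 6.44 ± 0.39, adjusted p = 8.54e-10), with a difference of 5.83 without sox10-NC array 1. SOX3, a SOXB factor, was below background in sox10-NC, with 11.00, 10.06 and 9.65 in NPC-NC, against 4.64, 4.36 and 4.49 in sox10-NC, and at least 28.6-fold higher. SOX21, a SOXB repressor, was at least 30.8-fold higher with nearly equal levels on the NPC-NC arrays, 10.26, 10.37 and 10.38. SOX2, a SOXB factor of neural stem cells, had 11.47, 10.77 and 10.90 in NPC-NC, against 8.61, 8.84 and 9.15 in sox10-NC, and was 4.54-fold higher (difference 2.18 ± 0.25, adjusted p = 2.94e-06). POU3F2, a POU factor of neurogenesis, was at least 12.7-fold higher and PROM1, an apical membrane protein of neuroepithelium, at least 14.3-fold higher. SOX1, a further SOXB factor, was not detected on any of the 6 arrays and was not tested. Of 12 measured radial glia genes, 3 were higher and 0 lower, namely FABP7, PAX6 and GPM6A, a neuronal membrane glycoprotein (7.61-fold).

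MIR9-2HG, the host transcript of the microRNA miR-9-2, stood at 10.18, 10.18 and 9.93 in NPC-NC, against 4.77, 4.61 and 5.36 in sox10-NC, below background there, and was at least 26.0-fold higher (adjusted p = 3.32e-10). The miR-9 products, which act in neural progenitors, lie inside this host on the minus strand of GRCh38.p14, at chr5:88666902-88666924 (5p arm) and chr5:88666866-88666887 (3p arm), and were not measured by this probe. The mature sequences from RefSeq are shown because the host was among the genes found in NPC-NC and below background in sox10-NC, with the seed (bases 2 to 8) in capitals:
hsa-miR-9-5p: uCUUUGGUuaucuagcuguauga
hsa-miR-9-3p: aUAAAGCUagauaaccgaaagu
The arms have different seeds.

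Forebrain and eye field factors were mostly undetected in sox10-NC, where 2 of 19 measured members were detected on each array, against 15 to 17 on NPC-NC arrays. A member was measured if detected on at least 3 of the 12 arrays, so the filter can build in part of this contrast. Of the 19, 15 were below background in 1 group alone. Unsorted LSB arrays detected 15 to 16 of the 19, close to NPC-NC. In NPC-NC 12 of the 19 were called higher and 0 lower. The median difference was 1.96, or 1.07 counting undetected members at their bound. With the filter on the 6 arrays compared, 14 were measured, and 12 were higher and 0 lower. LHX2, a selector factor of cortex and eye field, stood at 11.16, 11.95 and 12.01 in NPC-NC, against 4.31, 4.43 and 4.29 in sox10-NC, and was at least 79.6-fold higher (adjusted p = 7.73e-13). EMX2, a cortical homeobox factor, had 11.35, 11.22 and 10.83 in NPC-NC, against 5.08, 4.94 and 4.57 in sox10-NC, and was at least 53.4-fold higher (adjusted p = 8.05e-13). SP8, a zinc finger factor of the anterior forebrain, was at least 39.8-fold higher and FEZF2, a factor of forebrain and deep-layer cortical neurons, at least 11.1-fold higher. For these 4 factors all NPC-NC arrays were high and all sox10-NC arrays below background. LHX2, EMX2 and SP8 also met a naming rule that required this pattern, so for them it adds nothing.

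PAX6, a factor of neural plate, eye and cortex, had 9.38, 8.09 and 8.17 in NPC-NC, with array 1 highest, against 4.54, 4.77 and 4.77 in sox10-NC, and was at least 8.90-fold higher. OTX2, a factor of forebrain and midbrain that cranial placodes also use, was detected on all 3 sox10-NC arrays, with 9.94, 9.95 and 10.48 in NPC-NC, against 7.01, 6.51 and 6.71 in sox10-NC (difference 3.38 ± 0.24, 10.4-fold higher, adjusted p = 6.01e-09). SIX3, a factor of the anterior neural plate, was at least 3.41-fold higher and OTX1 at least 3.00-fold higher. EMX1, DMRTA2 and FEZF1, with bounds of 2.10, 2.18 and 2.03, were no longer called without background correction, and NR2E1 ended under more alternatives. Of 33 HOX genes, which mark levels behind the forebrain, 2 were measured, of which 0 to 1 were detected on NPC-NC arrays and 0 to 1 on sox10-NC arrays.

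The promoters of TFAP2B and LHX2 are shown because these factors are among the largest changes in each direction with 1 group below background. Each sequence is 250 bases upstream of the start annotated by RefSeq in GRCh38.p14, on the plus strand at chr6:50818621-50818870 and chr9:124011518-124011767. Capitals mark GCCNNNGGC, the palindromic letters bound by AP-2 factors, which read the same on both strands:
TFAP2B: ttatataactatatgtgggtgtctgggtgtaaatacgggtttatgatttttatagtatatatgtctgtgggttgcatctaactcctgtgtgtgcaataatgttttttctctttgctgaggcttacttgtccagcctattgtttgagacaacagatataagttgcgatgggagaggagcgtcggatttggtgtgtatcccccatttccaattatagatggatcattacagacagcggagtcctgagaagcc
LHX2: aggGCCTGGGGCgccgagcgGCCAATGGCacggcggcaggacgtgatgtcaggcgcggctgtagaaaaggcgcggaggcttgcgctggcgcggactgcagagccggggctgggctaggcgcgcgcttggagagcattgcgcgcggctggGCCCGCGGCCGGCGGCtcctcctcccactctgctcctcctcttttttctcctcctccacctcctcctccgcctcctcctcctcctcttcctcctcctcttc
TFAP2B had 0 matches and LHX2 had 4, of which 2 overlap in the last run of capitals. These letters were found in 30.5% of 809 promoters of genes called higher and 26.5% of 385 promoters of genes called lower, against 27.6% of the 9148 tested genes with a promoter and 19.7% of all 27305 promoters, and a match is no evidence of binding.

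Genes of cortical neuron formation were higher in NPC-NC for 6 of 14 measured members and lower for 3. The median difference was 0.90, or 0.36 with bounds, and 6 of the 14 were below background in 1 group alone. The filter can thus build in part of this contrast. EOMES, a T-box factor of intermediate progenitors, stood at 10.49, 10.15 and 10.85 in NPC-NC, against 4.31, 4.48 and 4.35 in sox10-NC, below background there, and was at least 34.4-fold higher (adjusted p = 1.49e-12). SLC17A6, a vesicular glutamate transporter, was at least 4.57-fold higher, with 7.64, 7.02 and 8.09 in NPC-NC, against 4.37, 4.44 and 4.36 in sox10-NC. TBR1, a T-box factor of early cortical neurons, was at least 2.71-fold higher, a call that ended without background correction. The lower members were NEUROG1, PPP1R17, a phosphatase inhibitor, at 4.51-fold, with a difference of -2.17 and of -2.79 without sox10-NC array 1, and RELN, the secreted protein of Cajal-Retzius cells. RELN stood at 8.16, 8.33 and 9.04 in NPC-NC, against 9.88, 9.35 and 9.76 in sox10-NC, and its call (difference -1.15 ± 0.31, adjusted p = 0.0104) ended without NPC-NC array 1.

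Among 7 measured DLX and GABA neuron genes, 5 were higher and 1, ISL1, lower. DLX1, a factor of forebrain interneurons, had 7.58, 10.02 and 9.80 in NPC-NC, against 4.87, 6.93 and 4.62 in sox10-NC, where array 2 was the highest. It was 12.7-fold higher (difference 3.66 ± 0.55, adjusted p = 6.25e-05), with a difference of 4.44 without NPC-NC array 1 and 4.39 without sox10-NC array 2. DLX1 was detected on 1 sox10-NC array. GAD1, the main enzyme of GABA synthesis, was at least 6.83-fold higher, with 7.52, 8.15 and 8.83 in NPC-NC, against 4.86, 4.96 and 4.41 in sox10-NC. SLC32A1, the vesicular GABA transporter, was at least 3.74-fold higher.

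Pan-neuronal genes were higher for 16 of 27 measured members and lower for 1 (median difference 1.41). The mean level of the 27 was 8.92 to 9.29 on NPC-NC arrays and 6.91 to 7.95 on sox10-NC arrays, with sox10-NC array 1 the lowest. On unsorted LSB arrays the mean level was 6.98 to 7.19. The count of higher members was 18 without NPC-NC array 1, 13 without sox10-NC array 1 and 20 without sox10-NC array 2. STMN4, a tubulin-binding protein of neurons, stood at 10.12, 9.20 and 10.07 in NPC-NC, against 4.48, 5.69 and 4.71 in sox10-NC, and was 28.5-fold higher (difference 4.83 ± 0.38, adjusted p = 2.11e-08). RTN1, a reticulon of neuroendocrine cells, was 17.1-fold higher, MAPT, the microtubule protein tau, 8.87-fold and DCX, doublecortin of migrating young neurons, 2.90-fold. STMN4 and MAPT were each detected on 1 sox10-NC array, so their folds rest in part on signal below background. INA, an intermediate filament of young neurons, was 9.49-fold higher, with a difference of 3.25 and of 3.89 without sox10-NC array 2. STMN2, a stathmin of growing axons, was present in both groups, with 12.33, 11.93 and 12.38 in NPC-NC, against 8.13, 10.80 and 10.42 in sox10-NC (difference 2.43 ± 0.45), and the difference was 1.60 without sox10-NC array 1. The lower member was L1CAM, an adhesion protein of axons.

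Of 19 measured axon guidance genes, 8 were higher and 2 lower. SLIT2, a ligand that repels axons, had 8.72, 8.45 and 8.47 in NPC-NC, against 5.72, 5.01 and 5.63 in sox10-NC, and was 8.54-fold higher (difference 3.09 ± 0.23, adjusted p = 9.41e-09). EPHA4, an ephrin receptor, was 6.76-fold higher and EPHA3 at least 2.30-fold higher. ROBO1, a receptor for SLIT2, was 2.60-fold lower, while its relative ROBO3 was 3.38-fold higher, and both calls ended without background correction. Among 12 synaptic vesicle genes 4 were higher and 1 lower, with SNAP91, a clathrin assembly protein, at least 6.07-fold higher. PCDH19, an adhesion protein of the delta protocadherins, was at least 7.48-fold higher and 1 of 2 higher members among 10 protocadherins, of which 1 was lower.

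Dorsal midline genes were higher for 5 of 15 measured members and lower for 1, MSX1. The median difference was 0.18, or 0 with bounds. Of the 15, 10 were below background in 1 group alone, so the filter can build in part of this contrast. With the filter on the 6 arrays compared, 7 were measured, 5 higher and 1 lower. ZIC4, a relative of ZIC1 in the dorsal neural tube, stood at 9.56, 10.49 and 10.41 in NPC-NC, against 4.29, 4.34 and 4.38 in sox10-NC, and was at least 27.1-fold higher (adjusted p = 9.14e-11). RSPO1 and RSPO3, secreted amplifiers of Wnt signalling made by the roof plate and cortical hem, were at least 4.67-fold and 6.50-fold higher. ZIC1 and ZIC2 made up the rest.

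FGF signalling induces its own feedback inhibitors, so that Sprouty, DUSP and ETV genes serve as its readout. Of 17 measured FGF response genes, 12 were called higher and 0 lower (median difference 2.28, or 2.19 with bounds). The list is wider than this readout. Its higher members included FGF2, FGF8, FGF9 and FGF13, which are not Sprouty, DUSP or ETV genes. On NPC-NC arrays 15 to 17 were detected, against 4 to 9 on sox10-NC arrays. Of the 17, 7 were below background in 1 group alone, so the filter for measured genes can build in part of this contrast. Each unsorted LSB array detected 16 of the 17, so sox10-NC was the group with few detected. SPRY1, an inhibitor of receptor tyrosine kinase signalling, stood at 11.58, 12.03 and 12.07 in NPC-NC, against 5.45, 4.98 and 5.09 in sox10-NC, where no array detected it, and was at least 90.4-fold higher (adjusted p = 1.49e-12). SPRY2 had 10.49, 10.91 and 10.59 in NPC-NC, against 6.96, 8.47 and 7.33 in sox10-NC, and was 8.43-fold higher (difference 3.08 ± 0.31), and SPRY4 was at least 5.17-fold higher. The 3 NPC-NC arrays were close together for each Sprouty gene and did not overlap sox10-NC.

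ETV5 and ETV4, ETS factors downstream of FGF, were 16.1-fold and at least 8.01-fold higher. DUSP6, a phosphatase that turns off ERK, had 8.77, 9.68 and 9.82 in NPC-NC, against 5.16, 6.59 and 5.01 in sox10-NC, and was 14.3-fold higher (difference 3.84 ± 0.38, adjusted p = 3.65e-07). SPRED2, a related inhibitor, was 4.86-fold higher. ETV5 and DUSP6 were each detected on 1 sox10-NC array. Among the ligands, FGF9 was at least 4.55-fold higher with 7.63, 7.69 and 7.43 in NPC-NC. FGF8, the ligand of the anterior neural ridge and midbrain border, had 4.92, 7.86 and 7.30 in NPC-NC, against 4.42, 4.52 and 4.59 in sox10-NC, and was at least 2.46-fold higher (adjusted p = 0.00821). NPC-NC array 1 lay just above the sox10-NC arrays and did not detect FGF8, and the FGF8 call ended without NPC-NC array 2 or 3. The fitted FGF8 difference, which is no bound, was 2.18, and it was 3.07 without NPC-NC array 1 and 1.59 without NPC-NC array 2. Without NPC-NC array 1 the list again had 12 members higher and 0 lower.

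Wnt signalling acts through TCF/LEF factors, which turn on feedback genes such as AXIN2 and SP5. Of 17 measured members of the Wnt list, 8 were called lower and 4 higher (median difference -1.0). The 8 lower were targets, feedback genes and the ligand WNT5A. The 4 higher were the secreted proteins FRZB, SFRP1, SFRP2 and DKK3. This grouping was read from the calls and does not divide the list by role, since the secreted inhibitor NOTUM was lower and DKK1 was not called. SP5, a zinc finger target of Wnt, stood at 4.81, 4.42 and 4.46 in NPC-NC, all below background, against 8.61, 9.06 and 8.26 in sox10-NC, and was at least 11.5-fold lower (adjusted p = 3.64e-10). NKD1, a feedback inhibitor, was 9.93-fold lower with 5.37, 4.88 and 4.65 in NPC-NC, against 8.68, 8.52 and 7.64 in sox10-NC. NKD1 was detected on 1 NPC-NC array. AXIN2, a common readout of the pathway, had 8.64, 8.51 and 8.75 in NPC-NC, against 10.58, 10.87 and 10.20 in sox10-NC, and was 3.77-fold lower (difference -1.92 ± 0.22, adjusted p = 3.10e-06). AXIN2 was thus well detected in both groups, while SP5 was below background in NPC-NC.

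LEF1, itself a TCF/LEF factor, was 3.26-fold lower (difference -1.71 ± 0.24), with 7.98, 7.80 and 8.64 in NPC-NC, against 9.96, 9.91 and 9.67 in sox10-NC. TNFRSF19, a receptor that Wnt induces, was 5.65-fold lower, and the ligand WNT5A 4.44-fold lower. NOTUM, an enzyme that inactivates Wnt ligands, was at least 2.79-fold lower, a call that ended without background correction, and BAMBI, a BMP pseudoreceptor that Wnt also induces, 5.6-fold lower. The higher members were FRZB, SFRP1 and SFRP2, which bind Wnt ligands, and DKK3 of the Dickkopf family. FRZB had 10.91, 10.94 and 10.62 in NPC-NC, against 6.77, 6.51 and 7.07 in sox10-NC, and was 16.4-fold higher (difference 4.03 ± 0.30, adjusted p = 9.41e-09). SFRP1 was 7.53-fold, DKK3 7.17-fold and SFRP2 3.10-fold higher. The sox10-NC cells had been induced with Wnt, and the part of that induction in these differences was not tested.

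The promoters of SP5 and LEF1, both lower in NPC-NC, are shown to compare their TCF/LEF letters. The 250 bases upstream of the RefSeq start lie at chr2:170715087-170715336 on the plus strand and chr4:108166302-108166551 on the minus strand of GRCh38.p14. Capitals mark CTTTGAA or CTTTGAT on either strand:
SP5: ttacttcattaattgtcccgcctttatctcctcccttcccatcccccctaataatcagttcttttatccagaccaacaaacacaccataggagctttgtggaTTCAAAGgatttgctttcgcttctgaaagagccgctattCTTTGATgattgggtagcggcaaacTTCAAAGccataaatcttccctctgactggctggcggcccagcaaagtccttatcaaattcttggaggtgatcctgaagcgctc
LEF1: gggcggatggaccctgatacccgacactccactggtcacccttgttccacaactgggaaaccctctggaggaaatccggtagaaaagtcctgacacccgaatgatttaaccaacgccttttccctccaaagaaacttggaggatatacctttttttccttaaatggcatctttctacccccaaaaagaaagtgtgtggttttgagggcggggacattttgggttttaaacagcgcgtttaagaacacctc
SP5 had 3 matches and LEF1 had 0. Of 9 tested members of the Wnt list with a promoter, 2 had these letters, SP5 and the inhibitor DKK1, which was not called. Among all promoters 6.03% had them, among those of tested genes 3.67%, among genes called higher 3.83% and among genes called lower 5.71%. A match or its absence in this window says nothing of binding.

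**Figure D4:**
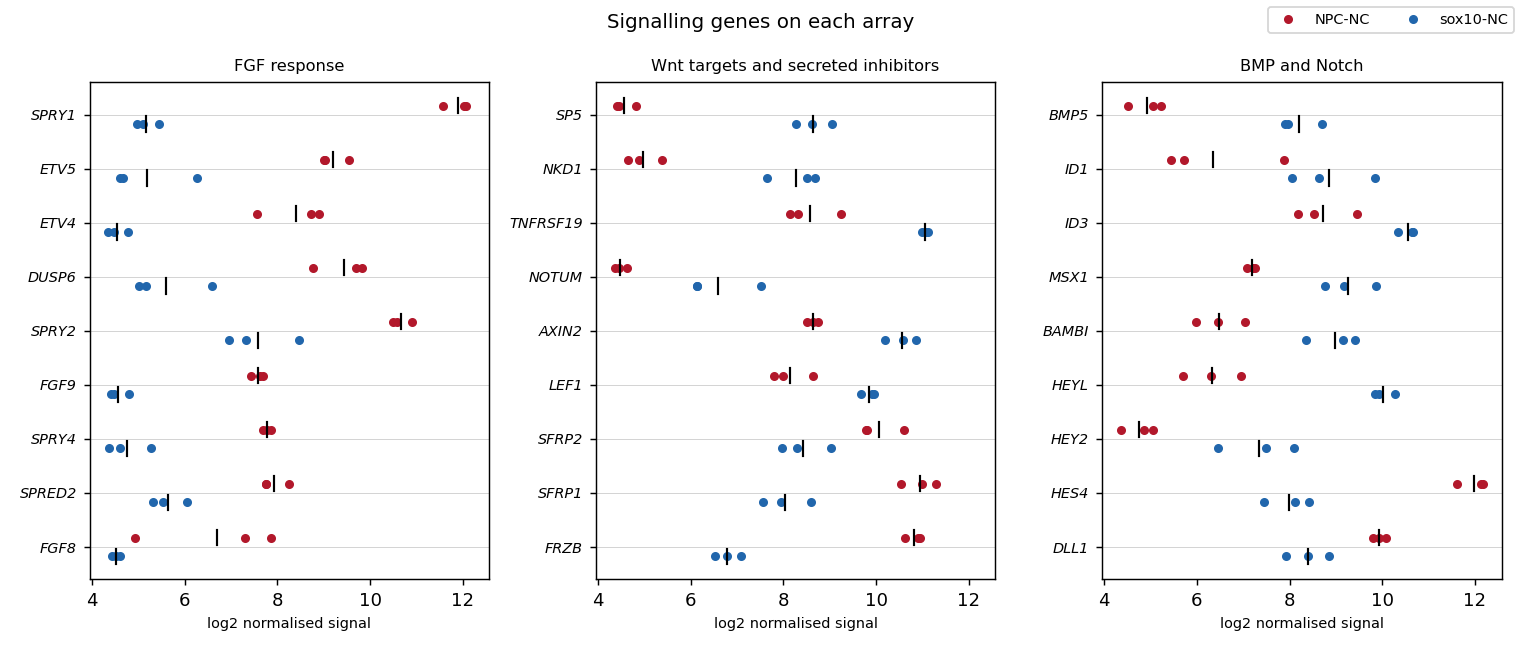
Log2 normalised signal of genes of FGF response (left), Wnt targets and inhibitors (middle) and BMP and Notch signalling (right) on the 3 NPC-NC arrays (red, upper of each pair) and 3 sox10-NC arrays (blue, lower), with a black bar at each group's mean. NPC-NC arrays lie right of sox10-NC arrays for every FGF response gene shown, and left of them for SP5, NKD1, TNFRSF19, NOTUM, AXIN2 and LEF1. All genes shown were called, so this separation follows in part from their choice.

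BMP response genes were lower for 5 of 14 measured members and higher for 1 (median difference -0.74). BMP5, a ligand, stood at 4.51, 5.05 and 5.23 in NPC-NC, against 8.71, 7.91 and 7.97 in sox10-NC, and was 9.63-fold lower (difference -3.27 ± 0.28, adjusted p = 5.69e-08). BMP5 was detected on 1 NPC-NC array. ID1, a direct BMP target, had 7.89, 5.45 and 5.73 in NPC-NC, against 8.64, 9.85 and 8.05 in sox10-NC, with NPC-NC array 1 close below the lowest sox10-NC array. It was 5.63-fold lower (difference -2.49 ± 0.49, adjusted p = 0.00101), and the difference was -3.26 without NPC-NC array 1. ID3, MSX1 and BAMBI were the other lower members. The higher member was ID4 (difference 1.10), so the ID genes split. Without NPC-NC array 1, 7 of the 14 were lower.

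Of 17 measured members of the Notch list, 5 were higher and 2 lower, with the effectors HES4 and HES5 among the higher and HEY2 and HEYL the lower. HES4, an effector of the HES family, had 12.18, 11.62 and 12.12 in NPC-NC, against 8.11, 7.44 and 8.41 in sox10-NC, and was 15.8-fold higher (difference 3.98 ± 0.28, adjusted p = 6.74e-09), beside HES5 above. DLL1, a ligand, was 2.91-fold higher. HEYL, an effector of the HEY family, had 6.95, 5.70 and 6.31 in NPC-NC, against 9.84, 10.28 and 9.93 in sox10-NC, and was 13.0-fold lower (difference -3.70 ± 0.29, adjusted p = 1.90e-08), and HEY2 was at least 4.70-fold lower. The higher members LFNG, an enzyme that modifies Notch, and DLL3 were lost under several alternatives.

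Retinoid genes were lower for 3 and higher for 2 of 12 measured members. CRABP2, a carrier of retinoic acid, had 10.07, 9.58 and 9.92 in NPC-NC, against 12.44, 12.07 and 12.28 in sox10-NC, and was 5.31-fold lower (difference -2.41 ± 0.22, adjusted p = 1.45e-07), and STRA6, a transporter of retinol, was 3.73-fold lower. Of 8 hedgehog pathway genes, 2 were higher and 1 lower, and all 3 calls ended without background correction.

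Genes of the epithelial to mesenchymal transition moved both ways, with 2 of 10 measured members higher and 3 lower. The 3 lower were SNAI2, ZEB2 and CDH1. CDH1 encodes the epithelial E-cadherin and counts also among the lower epithelial genes below. ZEB2, a repressor of epithelial genes in crest and neurons, was 5.67-fold lower, with 6.85, 5.61 and 5.81 in NPC-NC, against 9.10, 8.43 and 8.24 in sox10-NC (difference -2.50 ± 0.31, adjusted p = 8.53e-06), beside SNAI2 above. PRRX1, a homeobox factor of mesenchyme, was at least 3.37-fold higher. CDH2, which encodes N-cadherin of neural tissue, was 2.26-fold higher, a call that ended without sox10-NC array 1. Of 13 epithelial genes 5 were higher and 2 lower, and 1 of the 7 calls, the lower one of CDH3, held without background correction. CDH3, which encodes P-cadherin, had 5.71, 5.25 and 4.84 in NPC-NC, against 6.01, 8.72 and 6.95 in sox10-NC, where array 2 was the highest, and its difference was -1.96, -1.21 without sox10-NC array 2 and -2.57 without sox10-NC array 1.

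Collagens were higher for 4 of 18 measured members and lower for 1 (22.2% and 5.56%, beside 9.31% and 4.73% of all genes). COL4A6, a basement membrane chain, had 10.66, 10.53 and 10.87 in NPC-NC, against 7.92, 7.5 and 8.44 in sox10-NC, and was 6.65-fold higher (difference 2.73 ± 0.24, adjusted p = 8.97e-08). COL3A1, a fibrillar chain, was 5.29-fold higher and COL2A1, the cartilage chain that early neural tissue also makes, 4.75-fold. LAMB1, a laminin chain, was 4.72-fold lower, with 7.37, 6.64 and 6.99 in NPC-NC, against 9.66, 8.97 and 9.09 in sox10-NC. ITGB5, an integrin chain, was 3.68-fold higher. Other mesenchyme and matrix genes had 5 of 15 members higher and 2 lower, and the mean level of the 15 was 7.5 to 8.63 on NPC-NC arrays, with array 1 the highest, and 7.32 to 7.72 on sox10-NC arrays. LUM was higher at 5.32-fold (difference 2.41 ± 0.67, adjusted p = 0.0134), but its difference was 1.14 without NPC-NC array 1 and 3.12 without NPC-NC array 2, and the call ended without background correction. Of 12 contractile genes 1, TPM1, a tropomyosin, was called (2.61-fold higher), a share of 8.33% beside 9.31% of all genes.

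Of 8 measured pluripotency genes 2 were lower and 1 higher. LIN28A, an RNA-binding protein of stem cells and early embryonic tissue, had 8.56, 7.71 and 7.73 in NPC-NC, against 11.68, 11.41 and 11.60 in sox10-NC, and was 11.8-fold lower (difference -3.56 ± 0.58, adjusted p = 1.67e-04). ZFP42, a stem cell zinc finger factor, was below background in NPC-NC, with 4.83, 4.62 and 4.67 in NPC-NC, against 7.95, 8.43 and 8.78 in sox10-NC, and at least 9.63-fold lower. POU5F1, the defining pluripotency factor, was not detected on any of the 6 arrays and was not tested. The higher call, of TERF1, ended under most alternatives.

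Cholesterol synthesis genes were higher for 8 of 12 measured members and lower for 0 (median difference 1.31). HMGCS1, the synthase before the rate-limiting step, stood at 12.66, 12.65 and 12.52 in NPC-NC, against 9.95, 11.58 and 10.30 in sox10-NC, and was 4.01-fold higher (difference 2.00 ± 0.31, adjusted p = 8.27e-05). DHCR7, the enzyme of the final step, was 3.92-fold higher and INSIG1, a sterol sensor, 3.60-fold higher. NPC-NC arrays lay above all sox10-NC arrays for these 3 genes, and sox10-NC array 2 was the highest of its group.

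Among 30 measured proliferation genes 2 were higher (6.67%, beside 9.31% of all genes) and 0 lower, with a median difference of -0.18. All 30 were detected on all 6 arrays, at a mean level of 9.05 to 9.34 in NPC-NC and 9.02 to 9.38 in sox10-NC. The called members CDKN1C and CDKN1A are inhibitors of cyclin-dependent kinases, and CDKN1C stood at 9.51, 9.79 and 9.98 in NPC-NC, against 7.18, 8.61 and 7.25 in sox10-NC (4.23-fold higher, difference 2.08 ± 0.33), while the CDKN1A call ended under most alternatives. Hypoxia response genes depended on an array, with 3 of 15 higher and 0 lower, and 7 of 15 higher without sox10-NC array 1. SLC2A1, a glucose transporter, had 11.71, 12.27 and 11.96 in NPC-NC, against 11.35, 9.29 and 9.21 in sox10-NC, and a difference of 2.03, or 2.73 without that array. ADM, a vasodilator peptide that hypoxia induces, was 6.31-fold higher (difference 2.66 ± 0.47) with no overlap.

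Among immediate early genes 2 of 12 were higher and 1 lower (16.7% and 8.33%, beside 9.31% and 4.73% of all genes). EGR1, a zinc finger factor induced by growth signals, had 9.23, 8.46 and 9.07 in NPC-NC, against 9.84, 11.15 and 10.43 in sox10-NC, and was 2.93-fold lower (difference -1.55 ± 0.40, adjusted p = 0.00835). Of 16 MHC class I and interferon genes, 4 were higher and 1 lower, with ISG15, an interferon-induced modifier, 4.44-fold higher. IGFBP2, a carrier of insulin-like growth factors, was 2.51-fold higher and its relative IGFBP5 2.88-fold lower, among 3 higher and 2 lower of 11 IGF axis genes.

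Placode genes had 2 of 5 measured members higher and 2 lower. EYA1, a co-activator of placode factors, had 6.75, 4.73 and 4.74 in NPC-NC, against 7.76, 6.93 and 7.43 in sox10-NC, and a difference of -1.97 ± 0.41 (adjusted p = 0.0015), or -2.64 without NPC-NC array 1, and its call ended without background correction. SIX4, its partner factor, was 2.61-fold lower. Among lists of other cell types, 3 endothelial and blood genes were measured, of which 1 to 3 were detected on NPC-NC arrays and 1 on each sox10-NC array, and the only measured mesoderm or endoderm gene, MESP1, was at least 1.46-fold higher, a call that ended without background correction. Of 3 epidermal genes 1 was lower, the AP-2 factor TFAP2C, which is also a crest gene. Of 13 integrated stress response genes 1 was higher and 1, the lipoprotein receptor VLDLR, 3.93-fold lower. These are 7.69% each, beside 9.31% higher and 4.73% lower among all genes. Of 7 metallothioneins, which bind zinc and copper, 1 was higher and 1 lower, with MT1X at 5.81, 5.84 and 6.35 in NPC-NC, against 8.86, 8.75 and 6.99 in sox10-NC (difference -2.20 ± 0.38, or -2.81 without sox10-NC array 3). Voltage-gated channel genes had 3 of 11 members higher and 1 lower, and midbrain and hindbrain factors 2 of 5 higher and 0 lower.

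**Figure D5:**
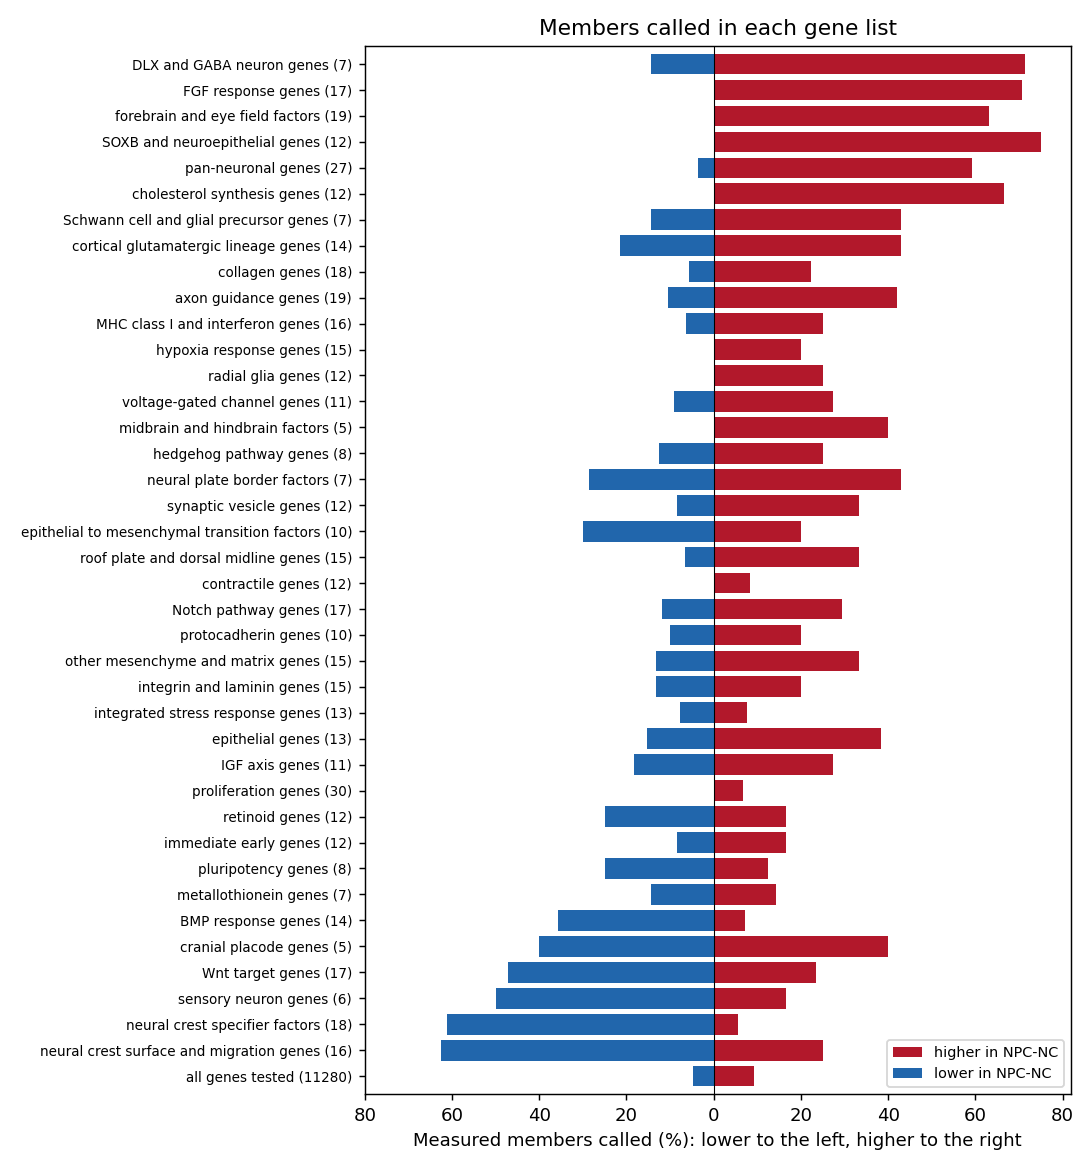
Share of the measured members of each gene list with at least 5 measured (number in brackets) that were called higher in NPC-NC (red, to the right) or lower (blue, to the left), in percent, ordered by median difference with all 11280 tested genes at the bottom. The 5 shown lists at the top, with DLX and GABA, FGF response, forebrain, SOXB and pan-neuronal genes, have 59.3% to 75.0% of members higher. Both crest lists at the bottom have 61.1% and 62.5% lower, beside 9.31% higher and 4.73% lower among all genes. The 61.1% includes SOX10, on whose reporter sox10-NC was sorted.

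The remaining arrays of the series give the levels of some of these genes in further cells, as a description without a test. MIR9-2HG had 10.10 ± 0.15 in NPC-NC, 10.97 ± 0.45 in MS5-NC, 4.86 ± 0.50 in LSB and 4.91 ± 0.40 in sox10-NC (SD, n = 3 each), so both groups of day 11 were low. DLK1 had 12.79 ± 0.04 in NPC-NC, 12.48 ± 0.57 in MS5-NC, 12.94 ± 0.41 in LSB and 4.77 ± 0.27 in sox10-NC, low in sox10-NC alone. FGF8 had its highest mean in LSB, with 6.69 ± 1.56 in NPC-NC, 5.0 ± 1.14 in MS5-NC, 8.95 ± 0.15 in LSB and 4.51 ± 0.09 in sox10-NC. LIN28A had 8.0 ± 0.48 in NPC-NC, 7.21 ± 1.96 in MS5-NC, 11.95 ± 0.07 in LSB and 11.56 ± 0.14 in sox10-NC, high in both groups at day 11. GNRH1, the gonadotropin-releasing hormone gene of placode-derived neurons, was 4.18-fold higher in NPC-NC than in sox10-NC, and its level was 8.08 ± 0.26 in NPC-NC, 11.01 ± 0.40 in MS5-NC, 6.30 ± 0.25 in LSB and 6.01 ± 0.43 in sox10-NC.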

How the data were processed

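Illumina HT-12 arrays of 3 NPC-NC, 3 sox10-NC, 3 MS5-NC and 3 LSB samples were grouped by their labels. The authors deposited unnormalised bead intensity values, a count of beads per probe and a detection p-value per probe, per the file headers, summarised with GenomeStudio per the submitters' processing notes. A second deposited table held processed intensity values whose background subtraction and scaling are not given in the sources used here.

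Intensities were corrected and quantile normalised over all 12 arrays by the neqc function (limma 3.58.1, R 4.3.3, offset 16, negative controls inferred from the detection p), which gave log2 values computed from the deposited intensities. A probe was kept when detected at p under 0.01 on at least 3 of 12 arrays, and the brightest probe stood for a gene. Of 47322 probes 30113 had 1 gene in the platform annotation, 8 several and 17201 none, 30074 matched a current symbol, and 11280 genes were tested. Among 386 called genes with several detected probes, 23 had a probe of opposite sign, 1 of them by 2-fold. limma's lmFit and eBayes were fitted to the 4 groups with Benjamini-Hochberg adjustment, and the steps were tested on simulated data. A lower bound sets the mean of the higher group against the lowest signal among detected probes, or the gene's own level if higher, per array.

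The members and gene lists were chosen with earlier results of these data known. Named genes were a marker panel, the largest changes among genes detected on all 6 arrays with groups that do not overlap, the highest genes with the other group below background, up to 5 called members of each list per direction with all crest specifier and plate border factors, and the smallest adjusted p. Other genes shown for their spread within a group, and further called members, were chosen after their values were seen. The labels do not say which cultures were separate, so p-values measure the spread between these samples. Promoters were read for 9148 of 11280 tested genes from RefSeq with Python 3.11.15 and pandas 2.3.3. Alternatives were other corrections, filters, probe rules, fits and thresholds, a replicate block, and each array left out.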

Additional observations from a re-analysis of the deposited data

How the results depend on the processing

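Of 1050 genes higher and 533 lower, all but 4 settings kept the counts within 1.5 times. Without background correction 435 were higher and 205 lower, with an offset of 50 the counts were 623 and 324, and with a 4-fold minimum 302 and 123. With no fold minimum 1516 were higher, which is within that range, and 981 lower. Folds of named genes shrank at the median to 0.568 of the reported ones without background correction and to 0.698 with an offset of 50. Leaving out each array in turn gave 1012 to 1081 genes higher and 525 to 607 lower. Deviations of same-numbered arrays correlated at 0.179, 0.148 and -0.01, against -0.208 to 0.114 for arrays of different number. With 3 arrays per group these values do not settle whether the replicate numbers pair the samples. With the replicate block 1048 genes were higher and 534 lower, 1046 and 532 of them shared with the reported calls. Of 250 named genes, 164 kept their direction and their side of the threshold under every alternative that gave a value, other than the fold minimums, which were applied to the counts alone, 81 lost the call under at least 1 and 4 changed sign under at least 1. The genes that changed sign were uncalled. TWIST1 was at 0.07 without background correction and 0.08 with an offset of 50. Leaving out each array gave -1.13 to 0.50 for TWIST1, where the low end is a call made without NPC-NC array 1, -0.47 to 0.21 for MYB, -0.60 to 0.03 for MYC and -0.18 to 0.46 for PAX7. The sign turned for TWIST1 without NPC-NC array 2 (0.32), NPC-NC array 3 (0.50) and sox10-NC array 3 (0.28), for MYB without NPC-NC array 1 (0.02), sox10-NC array 2 (0.21) and sox10-NC array 3 (0.02), for MYC without sox10-NC array 2 (0.03) and for PAX7 without sox10-NC array 3 (-0.18). The cause was not tested. Signal near background limits the folds of dim genes, and 482 called genes have only a lower bound.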
